A study of Mus musculus with 36 samples.

Results

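Levels of 9 neuronal genes that fell in the optic nerve or retina 2W after optic nerve crush were compared across the unmyelinated optic nerve (UON), the myelinated optic nerve (MON) and the retina of C57BL/6 mice. The genes were Rph3a, Nrsn1, Mapk8ip2, Sptbn4, Vwa5b2, Rims1, Calb2, Cplx1 and Kcnip1, 9 of the 55487 genes in the count table. They were chosen by symbol because their levels at crush 2W lay below naive in at least 1 tissue. This rule used the 12 libraries of the naive and crush 2W groups and not the other 24. Earlier results of these data were known when the genes were chosen. All 9 passed the filter on low counts in every comparison below.

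Total RNA was sequenced from 36 libraries, 12 for each tissue, from mice aged 2 to 4 months by the study's methods. The groups were bilaterally naive mice, mice at 3D and 2W after unilateral crush of the nerve, and mice that had received a unilateral injection of microbeads into the anterior chamber, the glaucoma model, which raises eye pressure, and were taken at 3D, 2W or 6W. Each of the 18 groups held 1 pool of RNA from 2 female mice and 1 pool from 2 male mice, so n = 2 throughout, and the pool cannot be told apart from the sex. UON, MON and retina came from the same mice. The deposited counts totalled 16158723 to 78054205 per library. The summed level of 8 mature oligodendrocyte markers was, in CPM (counts scaled to the library total), 6319 to 8126 in naive UON and 44770 to 64490 in naive MON, and that of 10 photoreceptor markers was 67640 to 68200 in naive retina and at most 207.3 in naive nerve.

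Retinal ganglion cells are the only retinal neurons whose axons run in the optic nerve, and their cell bodies lie in the retina. The rest of the nerve is glia, vessels and sheath. RNA of a neuronal gene in the nerve may therefore come from axons, which carry transported messenger RNA, or from other cells of the nerve. In bulk tissue, fewer cells of a type and less RNA per cell cannot be told apart.

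The genes fall into a few roles. Rph3a encodes rabphilin-3A, an effector of the vesicle GTPase Rab3, Rims1 encodes a scaffold of the presynaptic active zone, and Cplx1 encodes complexin 1, a regulator of SNARE-driven vesicle fusion. Sptbn4 encodes βIV spectrin, which anchors ankyrin G and sodium channels at the axon initial segment and nodes of Ranvier. Mapk8ip2 encodes JIP2, a scaffold of the JNK pathway that also binds kinesin. Nrsn1 encodes neurensin 1, a vesicle membrane protein of neurites. Calb2 encodes calretinin, a calcium buffer of ganglion and amacrine cells, and Kcnip1 encodes a calcium-binding partner of Kv4 potassium channels. Vwa5b2 was the remaining gene.

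In the GRCm38 coordinates of the deposited tables, Rph3a lay at chr5:120940499-121010092, Nrsn1 at chr13:25252040-25270502, Sptbn4 at chr7:27356383-27447686, Rims1 at chr1:22286251-22805994, Calb2 at chr8:110137502-110168210, Cplx1 at chr5:108518554-108550024 and Kcnip1 at chr11:33629339-33993152, all on the minus strand. Mapk8ip2 lay at chr15:89453913-89464468 and Vwa5b2 at chr16:20589471-20605377, both on the plus strand. The last bases of Vwa5b2 overlap Alg3 on the other strand, and Kcnip1 overlaps Kcnmb1 on the other strand. Whether strand was used in counting is not given in the sources used here, so reads in those overlaps cannot be told apart.

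Promoter windows from RefSeq (GRCm38.p6, 250 bases before to 50 after a start) are shown for Sptbn4, whose transcripts start at separate sites, and for Rph3a, the most abundant of the genes in naive UON. Sptbn4 has separate starts for its long and short transcripts, chr7:27446540-27446839 for the long Sptbn4-201 and chr7:27396504-27396803 for the short Sptbn4-203, both on the minus strand. Rph3a is shown at chr5:121009489-121009788, minus strand, the start of Rph3a-201. Capitals mark CG dinucleotides in both Sptbn4 windows and a match to GGACAGC on either strand, the right side of the RE1 element bound by the repressor REST, in the Rph3a window.
Sptbn4 long start: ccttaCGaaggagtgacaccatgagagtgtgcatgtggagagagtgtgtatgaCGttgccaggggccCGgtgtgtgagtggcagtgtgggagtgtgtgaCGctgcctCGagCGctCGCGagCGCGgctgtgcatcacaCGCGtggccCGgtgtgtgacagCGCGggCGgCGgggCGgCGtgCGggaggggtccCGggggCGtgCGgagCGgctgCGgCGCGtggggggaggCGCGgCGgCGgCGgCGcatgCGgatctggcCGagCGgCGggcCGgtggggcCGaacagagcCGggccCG
Sptbn4 short start: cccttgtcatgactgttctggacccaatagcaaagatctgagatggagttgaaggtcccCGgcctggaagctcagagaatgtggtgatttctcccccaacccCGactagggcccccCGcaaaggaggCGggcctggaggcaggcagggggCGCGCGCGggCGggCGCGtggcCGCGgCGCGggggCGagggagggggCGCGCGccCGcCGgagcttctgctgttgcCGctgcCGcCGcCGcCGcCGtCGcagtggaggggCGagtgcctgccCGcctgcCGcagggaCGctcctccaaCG
Rph3a start: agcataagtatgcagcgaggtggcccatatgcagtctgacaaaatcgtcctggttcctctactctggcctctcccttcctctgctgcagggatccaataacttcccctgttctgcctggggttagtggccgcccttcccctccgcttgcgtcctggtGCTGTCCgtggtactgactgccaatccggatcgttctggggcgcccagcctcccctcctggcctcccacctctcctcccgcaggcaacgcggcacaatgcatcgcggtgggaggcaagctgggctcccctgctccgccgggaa
The Sptbn4 windows held 41 and 33 CG dinucleotides at a GC content of 73.7% and 72.0%, and the Rph3a window held 16 at 63.0%. Over the 32851 windows of full length the medians were 7 dinucleotides and 52.7%.

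Levels below are CPM scaled by TMM factors over all 36 libraries unless they are said to be FPKM. Per length, in deposited FPKM, Rph3a was the most abundant of the genes in naive UON at 120.7 ± 24.04 (SD, n = 2), followed by Nrsn1 at 84.1 ± 9.68 and Sptbn4 at 68.0 ± 22.7. In naive MON the first was Nrsn1 at 76.5 ± 21.0 FPKM, followed by Rph3a at 36.9 ± 2.81. In naive retina Calb2 led at 245.1 ± 31.1 FPKM, followed by Nrsn1 at 63.8 ± 1.75, and Sptbn4 was the lowest at 2.13. The genes thus split by where their RNA was most abundant, with Sptbn4 and Vwa5b2 high in UON and low in retina and with Calb2, Cplx1 and Kcnip1 in the reverse order.

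**Figure D1:**
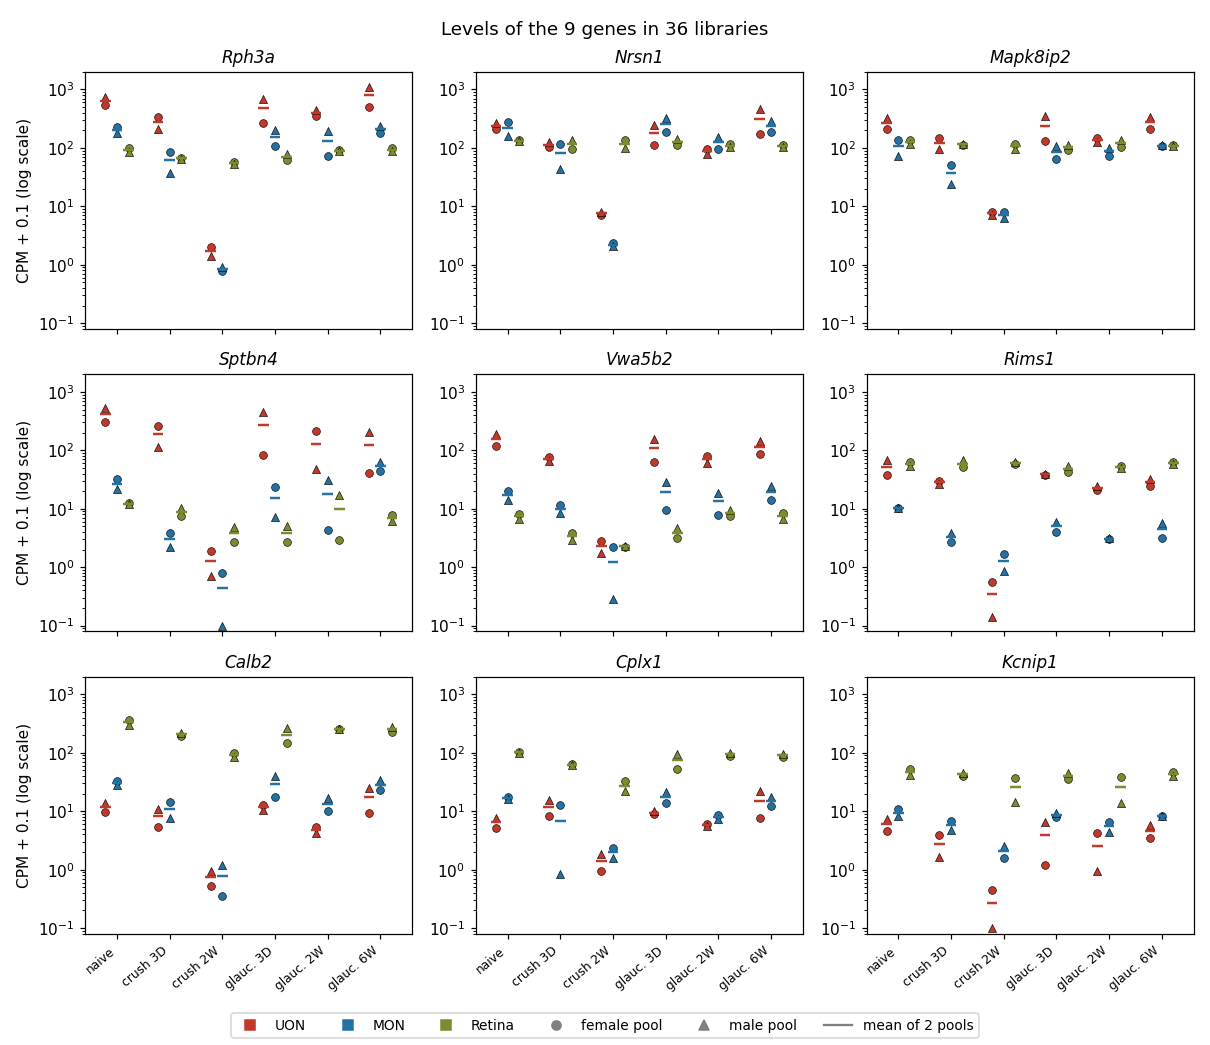
Level of each gene in each of the 36 libraries, in CPM on a log axis, by tissue and group, with 1 point per pool (female and male). The crush 2W points of Rph3a lie at 1.3 to 1.92 in UON and at 0.693 to 0.828 in MON, and at 52.5 to 58.0 in the retina.

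At crush 2W, the values that chose the genes, the nerve had lost nearly all of the most abundant RNAs while the retina had kept much of them. Rph3a stood at 536.0 and 750.3 CPM in the female and male naive UON pools and at 1.92 and 1.3 at crush 2W. In MON it stood at 224.9 and 178.4 in naive pools and at 0.693 and 0.828 at crush 2W. In the retina it stood at 99.1 and 83.6 in naive pools and at 58.0 and 52.5. The mean of Rph3a at crush 2W was therefore 0.251% of the naive mean in UON, 0.377% in MON and 60.5% in the retina.

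Sptbn4 showed the same range of loss, from 307.6 and 524.0 CPM in naive UON to 1.77 and 0.602 at crush 2W. In MON it went from 31.8 and 21.9 CPM to 0.693 and 0, with 11 counts in the female pool and 0 in the male. In the retina it went from 12.6 and 11.8 CPM to 2.65 and 4.75. Sptbn4 in the retina was thus lower at crush 2W than in naive pools.

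Nrsn1 and Mapk8ip2 were lost from the nerve and nearly kept in the retina. Nrsn1 was at 212.8 and 261.5 CPM in naive UON and 7.06 and 7.97 at crush 2W, at 280.4 and 159.0 and then 2.27 and 1.96 in MON, and at 137.5 and 129.4 and then 136.4 and 98.0 in the retina. Mapk8ip2 was at 214.5 and 326.4 CPM and then 7.93 and 6.93 in UON, and at 138.3 and 72.8 and then 7.94 and 6.19 in MON. In the retina its crush 2W mean was 84.2% of naive, and that of Nrsn1 was 87.9%. Rims1, the active zone scaffold, went from 38.0 and 67.4 CPM to 0.449 and 0.0388 in UON (21 and 2 counts), and its retinal mean at crush 2W was 105.3% of naive.

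Calb2 and Cplx1 had the lowest shares left in the retina in CPM. Calb2 was at 370.5 and 301.8 CPM in naive retina and at 97.7 and 83.8 at crush 2W, a mean of 27.0% of naive. Cplx1 was at 103.6 and 99.8 CPM in naive retina and at 32.5 and 22.1 at crush 2W, a mean of 26.8%. Sptbn4 and Vwa5b2 had retinal means of 30.4% and 29.8% of naive, and Kcnip1 one of 53.4%, with 52.9 and 42.1 CPM in naive pools and 36.3 and 14.5 at crush 2W. In deposited FPKM the log2 ratio of the retinal means was lower for Sptbn4 (-2.26) than for Cplx1 (-1.94) and Calb2 (-1.92). Over the 9 genes the median share left was 2.75% in UON, 6.53% in MON and 53.4% in the retina.

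By the limits used throughout (a Benjamini-Hochberg adjusted p under 0.05 by edgeR's quasi-likelihood test and an absolute log2 change over 1), crush 2W against naive called 5 of the 9 genes lower in UON, 7 in MON and 2 in the retina. Of all genes tested, 0.0281% were called lower in UON, 0.595% in MON and 0.238% in the retina. These counts, and those under other settings below, restate the choice of the genes and are given with no test. The shares of all genes called under the other settings are not given, so the counts there have no background beside them. The fitted log2 fold changes ran from -8.69 (Rph3a and Sptbn4) to -2.37 (Cplx1) in UON, from -7.92 (Rph3a) to -2.16 (Kcnip1) in MON and from -1.95 (Cplx1) to 0.04 (Rims1) in the retina. In UON only 6 genes were called lower, the other being Kif5a, the neuronal kinesin heavy chain, at -7.90, a gene named after its values were seen because it completes that count. The genes just inside and just outside the limits were, in UON, Sptbn4 at an adjusted p of 0.0336 and Rims1 at 0.122 (edgeR, a description of the choice). Over 9 alternative settings the number of genes called ran from 5 to 9 in UON, from 2 to 9 in MON and from 2 to 5 in the retina. In MON 2 genes were called without the female naive pool and 3 without the male naive pool, and in the retina 5 were called by DESeq2. In UON Rims1 was called in 7 of the settings and Calb2 in 3, and in MON Kcnip1 was called in 5 and Cplx1 in 4.

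The crush 2W groups also differed in glial and ganglion cell markers. In the retina the summed level of 10 ganglion cell markers was 436.5 to 482.3 CPM in naive pools and 114.7 to 117.3 at crush 2W, and 5 of the 10 were called lower, with Rbpms2 at a log2 fold change of -4.76 and Pou4f1 at -3.92. The summed level of 12 amacrine and horizontal cell markers was 696.6 to 749.0 CPM in naive retina and 662.9 to 773.2 at crush 2W. In MON the sum of 8 myeloid cell markers was 1340 to 1555 CPM in naive pools and 4781 to 7838 at crush 2W, and in UON it was 750.3 to 852.0 and then 2281 to 3271. The sum of 8 mature oligodendrocyte markers was 44770 to 64490 CPM in naive MON and 16760 to 20910 at crush 2W, and 6319 to 8126 and then 1456 to 8025 in UON. 0 of the markers in these sums were at 0 counts in any of those libraries. The part of these markers in the levels of the 9 genes was not tested.

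At 3D after crush the levels lay between naive and crush 2W for most of the genes, and the median change against naive was largest in MON. Rph3a in MON was at 85.1 CPM in the female pool and 36.7 in the male. The log2 fold change against naive was -1.72 ± 0.36 (SE, edgeR adjusted p = 0.0439). Mapk8ip2, the JNK scaffold, was at 50.5 and 23.7 CPM, or -1.44 ± 0.29 on the log2 scale (edgeR adjusted p = 0.0385). These were the 2 genes called lower of the 9, beside 0.655% of the 19988 genes tested in MON. The naive pools served in the choice of the genes, so this count is not independent of it. The same holds for every value against naive in UON, MON and the retina.

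The calls rested on single pools, and the shares of all genes called under other settings are not given. For Rph3a the adjusted p over 9 alternative settings ran from 9.24e-05 to 0.217 and was past the limit in 5, and for Mapk8ip2 it ran from 0.000493 to 0.213 and was past the limit in 4 (edgeR and DESeq2). Both calls were lost without either naive pool of MON, and both were also lost without the male crush 3D pool. Without the female crush 3D pool 6 genes were called, and without the male pool 1, Sptbn4. In the same fit the MON value was -1.45 for Nrsn1 (edgeR adjusted p = 0.0603), -3.20 for Sptbn4 (0.0798), -1.57 for Rims1, -1.41 for Calb2 and -1.94 for Cplx1. The 9 values all lay below 0, with a median of -1.45 beside -0.0049 over all genes tested.

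The pools of MON differed from each other at 3D. The male crush 3D pool was below the female in Rph3a, Nrsn1, Mapk8ip2, Sptbn4, Vwa5b2, Calb2, Cplx1 and Kcnip1 and above it in Rims1. Cplx1 was at 12.8 CPM in the female pool and 0.758 in the male. Nrsn1 was at 117.3 and 43.6 CPM, and Calb2 at 14.1 and 7.54. In the same MON pools the sum of myeloid markers was 1340 to 1555 CPM in naive pools and 3742 to 4738 at crush 3D, and the sum of 8 mature oligodendrocyte markers was 44770 to 64490 CPM in naive pools and 27310 to 35270 at crush 3D. Their part in the values of the 9 genes was not tested.

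In UON at 3D, no gene of the 21368 tested was called lower by edgeR, a background of 0%, and 0 of the 9 were called. The study did report changed genes in UON at this time by DESeq2 at the same limits. Here DESeq2 also called 0 of the 9, and 4 of the 9 had an unadjusted p under 0.05 by edgeR. The share of all genes under that unadjusted limit is not given here or below, so such counts have no background beside them. Rph3a was at 334.3 and 210.2 CPM there against 536.0 and 750.3 in naive UON, a log2 fold change of -1.28 ± 0.39. Sptbn4 was at 264.7 and 116.0 CPM, and Kcnip1 at 3.75 and 1.55. Cplx1 alone had a value above 0 in UON, at 0.86 ± 0.54, with 8.20 and 15.3 CPM against 5.13 and 7.55.

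In the retina at 3D, 0 of the 9 were called by edgeR or by DESeq2, beside 0.00441% of all genes called lower, and 4 had an unadjusted p under 0.05. Calb2 was at 196.9 and 219.9 CPM against 370.5 and 301.8 in naive retina, a log2 fold change of -0.66 ± 0.13. Cplx1 was at 64.3 and 60.9 CPM against 103.6 and 99.8, or -0.68 ± 0.15, and Vwa5b2 at 3.73 and 2.82 against 8.01 and 6.54, or -1.13 ± 0.29. Rims1 was at 51.2 and 67.4 CPM, on either side of the naive pools at 61.9 and 54.6.

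**Figure D2:**
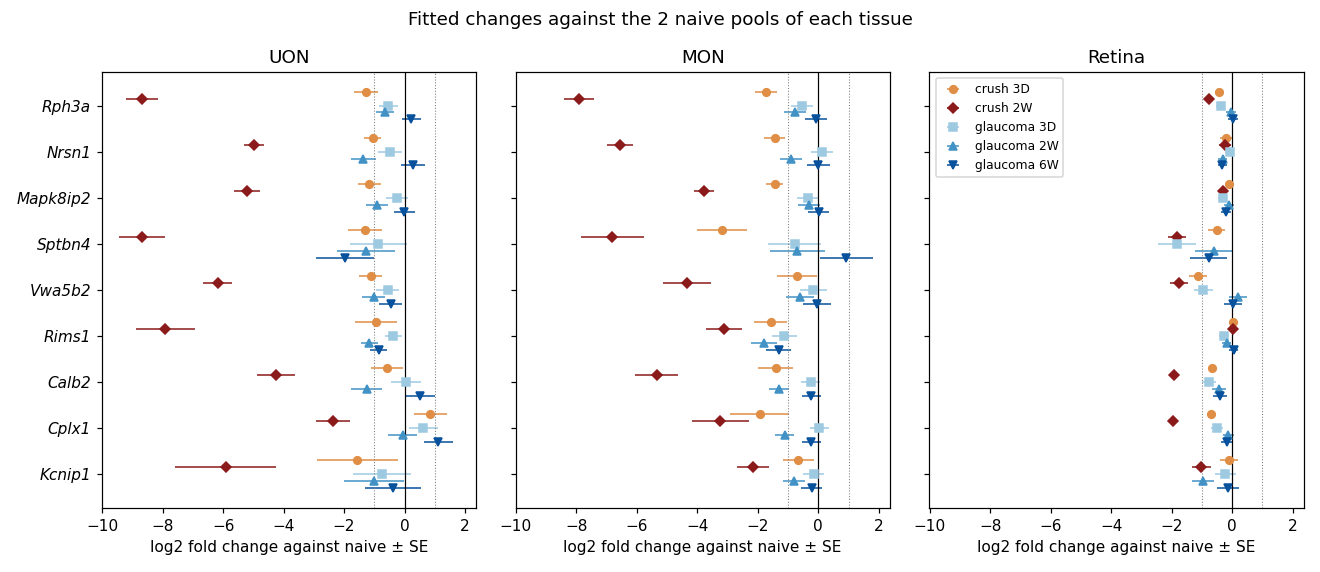
Log2 fold change of each gene against naive by tissue and group, from the edgeR fits, with bars of 1 SE. Crush 2W lies furthest below 0 in UON and MON, from -8.69 to -2.16, and the glaucoma groups lie nearer 0.

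In the glaucoma model none of the 9 genes was called by edgeR against naive at any time in any tissue, over 9 comparisons. The background was 0% of genes called lower in 7 of them, and 0.00429% and 0.00858% in the retina at 3D and 6W. DESeq2 called 3 of the genes lower in MON at 2W, Rims1 at -1.80, Calb2 at -1.30 and Cplx1 at -1.12, and 0 elsewhere. All background percentages here are those of edgeR, and the DESeq2 shares over all genes are not given, so the 3 have no background beside them. The study, by DESeq2, reported more changed genes in MON at 2W than in UON or the retina. The number with an unadjusted p under 0.05 was 0, 5 and 2 in UON at 3D, 2W and 6W, 1, 4 and 1 in MON, and 5, 1 and 0 in the retina. These numbers also have no share of all genes beside them and are not read as an excess. The naive pools are those used by the crush comparisons, so the glaucoma and crush values against naive share controls. They also served in the choice of the genes, so the glaucoma values against naive are not independent of that choice.

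The median change in the nerve regions was lowest at 2W. The median log2 fold change of the 9 genes was -0.48, -1.02 and -0.01 in UON at 3D, 2W and 6W, and -0.25, -0.81 and -0.08 in MON. Nrsn1 was at 97.4 and 78.7 CPM in UON at 2W and at 169.8 and 458.5 at 6W. Rims1 in MON stood at 10.2 and 10.03 CPM in naive pools and below that in every glaucoma pool, with the lowest at 2.91, the median at 3.50 and the highest at 5.89. Its value at 2W was -1.79 ± 0.42 (edgeR adjusted p = 0.317). The genes were chosen for naive levels above crush 2W, so a place below these naive pools is not independent of the choice.

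The glaucoma pools varied widely within a group, so the levels of many groups overlap. Rph3a in UON ran from 264.7 CPM at the lowest to 1100 at the highest, with a median of 474.6 over 6 pools, and the female and male pools at 6W were at 506.7 and 1100. Sptbn4 in UON was at 83.3 and 454.4 CPM at 3D, at 211.0 and 47.9 at 2W and at 41.6 and 209.7 at 6W. In the retina Nrsn1 lay between 102.5 and 141.1 CPM over 6 pools and Rph3a between 61.1 and 98.9. Kcnip1 was at 37.9 and 13.9 CPM in the retinal pools at 2W, and the 3D female retina pool held the lowest retinal glaucoma values of Calb2 (147.8 CPM) and Cplx1 (53.7 CPM).

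Ordered by mean level over the 18 groups, the genes had different highest groups. Naive retina was the highest group for Calb2 (336.2 ± 48.6 CPM, SD, n = 2), Cplx1 (101.7 ± 2.73) and Kcnip1 (47.5 ± 7.65). Naive UON was the highest for Sptbn4 (415.8 ± 153.0) and Vwa5b2 (155.4 ± 49.1), and UON at glaucoma 6W for Rph3a (803.2 ± 419.2), Nrsn1 (314.1 ± 204.1) and Mapk8ip2 (272.4 ± 89.5). Rims1 was highest in the retina at crush 2W (61.3 ± 2.76). The lowest group was UON crush 2W for Calb2, Cplx1, Kcnip1 and Rims1 and MON crush 2W for the other genes. Of the 17 pairs of neighbouring groups in each order, 10 (Rims1) to 15 (Mapk8ip2) overlapped in their pools and so did not differ beyond their spread.

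A direct comparison of the models at 3D used no library that chose the genes. Crush 3D against glaucoma 3D called 0 of the 9 genes in each tissue by edgeR, and 0 by DESeq2, beside 0%, 0.00439% and 0% of genes called lower in UON, MON and the retina. In MON the 9 log2 differences all lay below 0, with a median of -1.13 beside -0.028 over all genes, and 3 had an unadjusted p under 0.05. Nrsn1 in MON was at 117.3 and 43.6 CPM at crush 3D and at 190.1 and 327.0 at glaucoma 3D, a log2 difference of -1.55 ± 0.55. Mapk8ip2 was at 50.5 and 23.7 against 64.0 and 107.4 CPM (-1.13 ± 0.42), and Calb2 at 14.1 and 7.54 against 17.5 and 40.6 (-1.22 ± 0.49). Over 9 alternative settings these values moved from -2.81 to -0.70 for Nrsn1, from -1.97 to -0.47 for Mapk8ip2 and from -2.19 to -0.47 for Calb2, and the value of Vwa5b2 reached 0.10, above 0.

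The UON and retina differences between the models at 3D were smaller, with medians of -0.55 and 0.08, and in neither tissue did any of the 9 have an unadjusted p under 0.05. Whether the difference between the models itself differed between tissues was tested as an interaction, and 0 of the 9 were called by edgeR or DESeq2, beside 0% of all genes lower. For MON against the retina the 9 values lay below 0, with a median of -1.16 beside -0.11 over all genes. An unadjusted p under 0.05 was found for 5, among them Sptbn4 at -3.77 ± 1.53 and Rims1 at -0.90 ± 0.36, with no share of all genes to set beside that count. For UON against the retina 1 had such a p, and for UON against MON 0 did, so a different response of the nerve regions was not shown.

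Tissue differences were tested in the 18 glaucoma libraries, which the rule that chose the genes had not used. Time and sex were in the model, over 22297 genes. UON stood above the retina in Rph3a, Sptbn4 and Vwa5b2 and below it in Calb2, Cplx1 and Kcnip1. The background was high, since 24.5% of all genes were called higher and 23.7% lower in UON than in the retina, so counts of 3 of 9 each way are read against it. Rph3a had a median of 474.6 CPM in UON and 88.4 in the retina, and its lowest UON pool (264.7) was above its highest retinal pool (98.9). The log2 difference was 2.56 ± 0.22 (edgeR adjusted p = 4.457e-08).

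Sptbn4 and Vwa5b2 had larger differences of the same direction. Sptbn4 had a median of 146.5 CPM in UON and 5.54 in the retina, with a log2 difference of 4.75 ± 0.75 (edgeR adjusted p = 3.977e-05). Vwa5b2 had medians of 83.2 and 6.98 CPM, with a log2 difference of 3.85 ± 0.32 (edgeR adjusted p = 2.604e-08). Calb2 was the reverse, with medians of 9.71 CPM in UON and 251.6 in the retina (-4.61 ± 0.34, edgeR adjusted p = 5.416e-09). Cplx1 stood at -3.25 ± 0.28 and Kcnip1 at -3.33 ± 0.41 in the same comparison, and Nrsn1 (0.50), Mapk8ip2 (0.86) and Rims1 (-0.89) were not called.

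In MON against the retina, Sptbn4 (2.05) and Vwa5b2 (1.28) were called higher and Rims1 (-3.79), Calb2 (-3.51), Cplx1 (-2.79) and Kcnip1 (-2.29) lower, against 24.5% and 22.1% of all genes. Rims1 thus had its largest regional difference between MON, with a median of 3.50 CPM, and the retina, with 53.5. The nerve regions differed as well. UON was above MON in Rph3a (1.73 ± 0.22), Mapk8ip2 (1.15), Sptbn4 (2.70), Vwa5b2 (2.57) and Rims1 (2.90 ± 0.18, edgeR adjusted p = 1.173e-07) and below it in Calb2 (-1.10), that is 5 of the 9 higher and 1 lower beside 5.57% and 7.01% of all genes. The UON over MON calls of Calb2, Sptbn4 and Mapk8ip2 were each lost when 1 pool was left out, Calb2 without the male MON glaucoma 3D pool or the male UON glaucoma 2W pool, Sptbn4 without the female UON glaucoma 2W pool and Mapk8ip2 without the male UON glaucoma 3D pool. Kcnip1 was not called here but was called in 4 of 23 alternatives, by DESeq2, without the female UON glaucoma 2W pool, without the male UON glaucoma 3D pool and, at -1.25 ± 0.29 (edgeR adjusted p = 0.00589), with the pool of mice as a block.

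**Figure D3:**
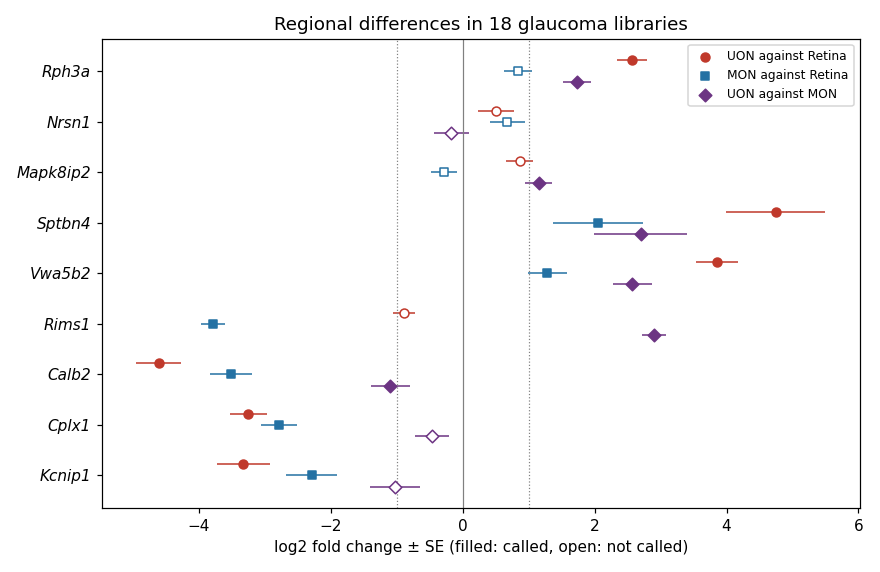
Log2 difference of each gene between tissues in the 18 glaucoma libraries, edgeR estimates with bars of 1 SE, filled points where the gene was called. Rph3a, Sptbn4 and Vwa5b2 lie above 0 and Calb2, Cplx1 and Kcnip1 below 0 for UON against retina.

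Photoreceptor RNA in the nerve dissections was small. The sum of 10 photoreceptor markers in the 24 nerve libraries was 0.0492% to 0.652% of that in naive retina, with a median of 0.118%. At that share, retinal RNA would hold at most 1.11% of the measured level of Rph3a, Nrsn1, Mapk8ip2, Sptbn4 or Vwa5b2 in the 20 nerve libraries other than crush 2W. For genes that are abundant in the retina the share was larger at its highest, 53.9% for Calb2 and 36.9% for Kcnip1, though the medians were 2.96% and 1.21%. Set against the crush 2W retina, where Calb2 was lower, the highest share over the 4 crush 2W nerve libraries was 45.1% for Calb2, and in 1 of them the level of Rims1 was no higher than this share of retina would give. These shares assume that whole retina was carried over. RNA of ganglion cells carried over without photoreceptors would not show in the marker sum and was not tested.

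The transcripts to which Sptbn4 and Rims1 counts were assigned varied among the libraries. The deposited tables give an estimated count for each transcript, which StringTie assigns from coverage and which is an estimate where models share exons. Sptbn4-201 is the long model with 36 exons that starts at chr7:27446599, and Sptbn4-202 and Sptbn4-203 are short models of 18 and 19 exons that start at chr7:27394506 and chr7:27396553. All 3 share their last base at chr7:27356383. In naive, crush 3D and glaucoma pools, most Sptbn4 counts fell on the short models in 9 of 10 UON libraries, in 5 of 10 MON libraries and in 1 of 10 retina libraries.

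The gene level of Sptbn4 moved with the model in MON, where the 5 pools mostly on short models were at 23.7 to 63.1 CPM and the 5 mostly on the long model were at 2.09 to 21.9. The long-model pools included both crush 3D pools and held 63 to 437 counts, against 1131 to 3258 in the short-model pools. The part of injury and of few reads in the assignment was not tested. The male UON glaucoma 2W pool, at 47.9 CPM, was wholly on the long model. The share of Sptbn4-203 in the glaucoma pools was 63.4% ± 49.2 in UON and 0.08% ± 0.20 in the retina (SD, n = 6), and an exact permutation test of that difference gave a two-sided p of 0.0606, or 0.136 after Benjamini-Hochberg adjustment over 27 tests. The difference between tissues in that share did not pass the test.

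For Rims1 the difference was larger than the spread. Rims1-207, a short model of 6 exons that starts at chr1:22315805, held 94.8% ± 1.27 of Rims1 counts in the glaucoma retina, 19.2% ± 30.1 in UON and 0.13% ± 0.32 in MON (SD, n = 6). Rims1-205, with 37 exons and a start at chr1:22805724, held 97.4% ± 5.48 in MON and 3.28% ± 1.99 in the retina. Rims1 had few reads in the nerve, with 64 to 363 counts in the MON glaucoma pools and 379 to 1820 in UON. The retina held 1109 to 2936 counts, and a read pair adds about 4. The part of few reads in the assignment was not tested. The retina differed from MON in both, and from UON in Rims1-207, with an exact two-sided permutation p of 0.00216, the smallest that 6 against 6 allows, and 0.0195 after adjustment over 27 tests. All 27 tests treated the tissues as independent, though their libraries came from the same mouse pools. A paired test was not run, and with 6 pairs its smallest possible p would be larger. These transcripts were chosen after the naive values had been seen, and the tested shares come from the glaucoma pools.

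**Figure D4:**
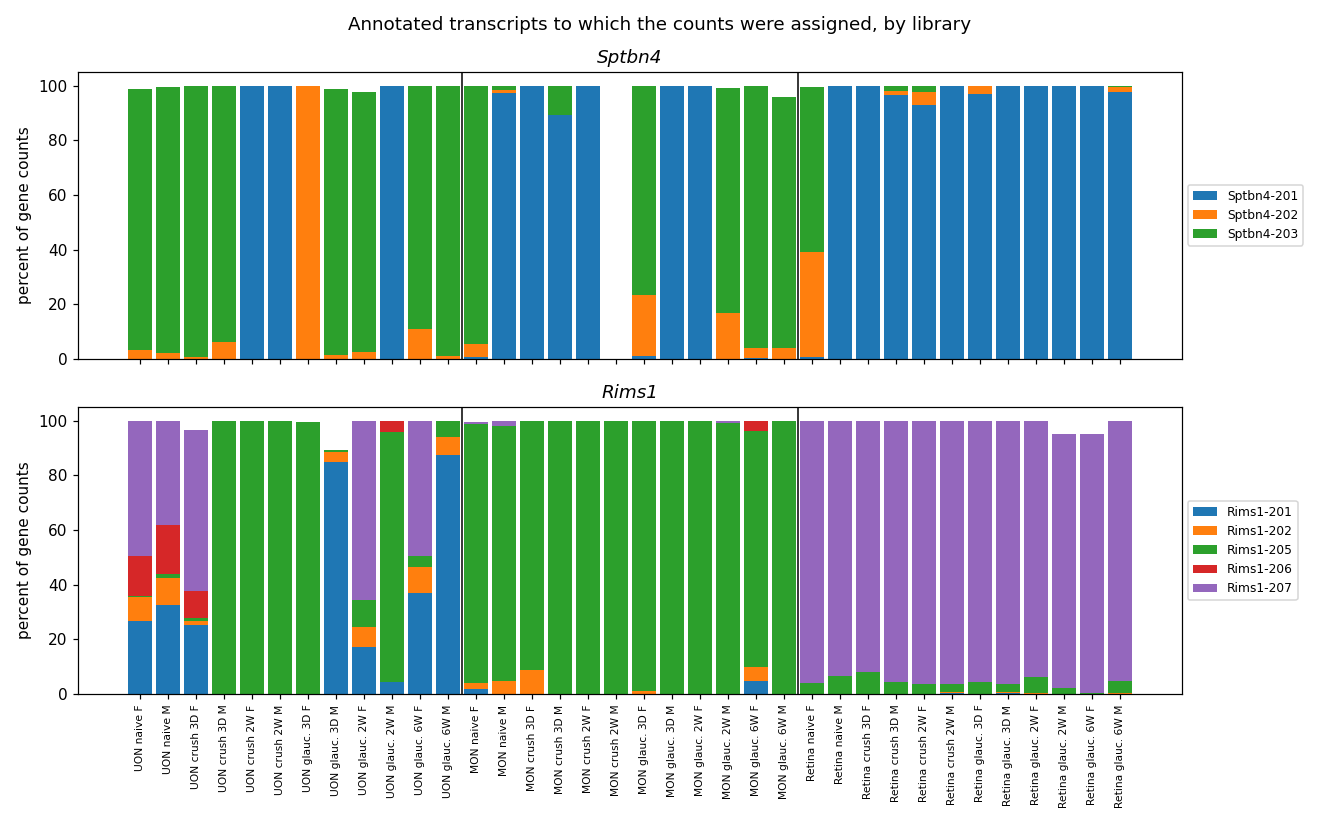
Share of each gene's counts, in percent, assigned to the annotated transcript models of Sptbn4 (top) and Rims1 (bottom), as 1 stacked bar per library, ordered by tissue and group, with F and M for the female and male pools and no bar where the gene had 0 counts. Glaucoma retina bars are mostly Rims1-207 (mean 94.8%), glaucoma MON bars mostly Rims1-205 (97.4%), and UON bars vary from pool to pool.

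Mapk8ip2 was almost wholly on 1 model in every library, and Rph3a was so in the retina. Rph3a-201 held a median of at least 96.96% in every retinal group, and Mapk8ip2-201 held at least 97.62% in every library. Vwa5b2-202 held a median of 93.9% in UON glaucoma pools and 41.5% in the retina, and this share was not among those tested. Kcnip1 was divided among models, and Kcnip1-201 held 54.1% ± 5.34 of its counts in the glaucoma retina, 53.3% ± 46.7 in UON and 75.9% ± 19.46 in MON (SD, n = 6), differences that did not pass the test after adjustment.

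Promoter windows were listed for 8 of the 9 genes, 16 windows in all, and Calb2 was the other gene. In these windows a search on both strands found the AP-1 motif TGANTCA in 1 window of Rph3a and the RE1 right side GGACAGC in 2 windows of Rph3a, at 93 bases before the start in the window printed above. No member window held TTCAGCACC (the RE1 left side), TGACGTCA (the CRE) or ATTAATNA (a motif of the POU4F family). The shares of all windows that hold these letters were 7.81% for TGANTCA, 6.56% for GGACAGC, 0.371% for TTCAGCACC, 1.79% for TGACGTCA and 2.75% for ATTAATNA. The matches describe these letters in these windows.

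Across the 12 libraries of a tissue, crush 2W included, the genes were correlated with each other in the nerve. Pearson's r of log2 CPM over 36 pairs ran from 0.70 to 0.99 in UON and from 0.65 to 0.99 in MON, with medians of 0.92 and 0.83. In the retina it ran from -0.19 to 0.97 with a median of 0.38. The points share libraries, among them the crush 2W libraries that chose the genes. Over the 10 libraries without crush 2W it ran from 0.05 to 0.94 in UON, from 0.36 to 0.94 in MON and from -0.30 to 0.95 in the retina, with medians of 0.57, 0.74 and 0.43.

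The most similar genes in the retina were Rbpms2, a ganglion cell RNA-binding protein, for Cplx1 (r = 0.995), Rgs4 for Calb2 (0.989), Kndc1 for Vwa5b2 (0.975) and Olfm1 for Rph3a (0.974). The highest r was 0.932 for Kcnip1 with Cbx1, 0.921 for Mapk8ip2 with Usp5, 0.916 for Sptbn4 with Slc20a1, 0.913 for Nrsn1 with Otub1 and 0.881 for Rims1 with Pias4. In MON the most similar were Unc13c for Rph3a (0.997), Cacng3 for Calb2 (0.996), Mgarp for Nrsn1 (0.992), Kif5a for Mapk8ip2 (0.982), Snap25 for Kcnip1 (0.971), Aspa for Sptbn4 (0.967), Rit2 for Vwa5b2 (0.966), Fgf12 for Cplx1 (0.929) and Pcdh17 for Rims1 (0.926). Each value is over 12 libraries, among them the libraries that chose the genes. These r values and their order are therefore not independent of that choice. No value without those libraries is given, so likeness apart from the change that chose the genes was not tested.

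The counts of related genes are read against the background of all genes, 23.7% lower and 24.5% higher in UON than in the retina. Among 34 genes of the vesicle release machinery, 31 were called lower in UON than in the retina in the glaucoma libraries, with a median log2 difference of -3.57. In MON against the retina 32 were lower and 1 higher, beside 22.1% and 24.5% of all genes, and in UON against MON 5 were lower and 4 higher, beside 7.01% and 5.57%. Among 15 genes of the axonal spectrin and ankyrin scaffold, 7 were lower and 4 higher in UON than in the retina, with Nefh, a neurofilament subunit, at 2.84 and Cntn1, a cell adhesion molecule, at -2.39. Among 15 calcium-binding and Kv4 channel genes 13 were lower, and among 12 genes of JNK scaffolds and kinases 2 were lower and 2 higher. The share of scaffold genes higher, and both shares of the JNK list, were near or below those of all genes.

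The same lists at crush 3D against naive held few calls. In MON, 1 vesicle gene was called higher, Sv2c at 3.51, beside 3.61% of all genes called higher. At crush 2W, the contrast that chose the genes, the vesicle list had 1 gene lower in MON (Snap25, -3.90) and 2 lower in the retina (Vamp1 -1.54 and Sv2c -1.47), and the axonal scaffold list had 2 lower in MON (the larger Nefl at -8.29) and 4 in the retina (Nefl -3.03 and Nefm -2.81), Nefl and Nefm being neurofilament subunits. The JNK list had Kif5a lower in UON (-7.90) and, with Klc1 (-1.77), in MON (-6.36), and these are chains of the motor kinesin that carries JNK scaffolds. These list values at crush 2W are a description.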

How the data were processed

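The members and gene lists were chosen with earlier results of these data known. By the submitters' notes and the study's methods, HISAT2 2.2.1 mapped the read pairs on GRCm38, and StringTie 1.3.0 then assembled and quantified them with Gencode annotation. The authors made the estimated counts of genes and transcripts with the count script of StringTie, without normalization, and a count stands for about 75 bases of coverage, so a pair of 150-base reads adds about 4. The deposited FPKM are the authors' StringTie values, and values just below 0 were set to 0. Transcript models here were those of the GRCm38 reference annotation.

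Counts were tested with edgeR 4.0.16 in R 4.3.3 on TMM-scaled counts after filterByExpr (minimum count 10, minimum total 15), with group and sex as terms, by the quasi-likelihood test with Benjamini-Hochberg adjustment over all genes tested. Crush fits held the naive, 3D and 2W pools of a tissue, glaucoma fits the naive and 3 glaucoma groups, and regional fits the 18 glaucoma libraries. DESeq2 1.42.0, which the study used, other scaling, no filter, no sex term, a fit of all 12 libraries of a tissue, and leaving out each pool were alternatives. The methods state that UON, MON and retina were taken from each animal, so the mouse pool pairs libraries across tissues. Deviations of same-pool libraries from their group means, correlated over 30097 genes, had r of -0.04 to 0.09 over 18 tissue pairs. Named genes were the 9, at most 2 called genes per list, marker genes and the 3 genes most alike each member, of which the first is printed. The edgeR steps were tested on simulated data. The edgeR test used here returns no SE, so the SE given with its values is the absolute log2 fold change divided by the square root of its F statistic. Pools of each sex hold 2 mice, so p-values measure the spread between pools, which includes sex where it is not in the model.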

Additional observations from a re-analysis of the deposited data

How the results depend on the processing

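Of the 309 summary values under other settings, 299 equalled the main value or, where both were above 0, lay within 1.5 times it, and 10 moved. Most of the 309 came from comparisons that called 0 genes in the main fit, where staying the same means that 0 stayed 0. Most of the moves lay in MON at crush 3D. For crush 2W the summary value was the number of genes that fell by over 1 on the log2 scale, which restates the choice of the genes. It was compared only under FPKM ratios, other scaling and left-out pools. The numbers called at crush 2W, which moved further as given above, are not among these values. The number of genes called lower in MON at crush 3D, 2 above, was 0 with all 12 MON libraries in one fit, 6 with no filter on low counts, 1 without the sex term and 3 by DESeq2, and ran from 0 to 6 when 1 pool was left out. For glaucoma 2W against naive in MON, 0 became 3 by DESeq2. The interactions of MON against retina and of UON against MON ran from 0 to 1 when 1 pool was left out, the gene being Cplx1 without the female MON crush 3D pool. UON against retina gained Rims1 by DESeq2, by median-of-ratios scaling and without the male UON glaucoma 3D pool, and Mapk8ip2 without the male UON glaucoma 2W pool. The cause of these moves was not tested, and the shares of all genes called under these settings are not given. Of 2781 single-gene values, 2703 counted as the same, 42 moved by more than 1 SE at crush 2W, 23 passed the threshold newly and 13 lost it. A change of sign was counted only for called genes and for crush 2W changes over 1, and there 0 reversed. Genes that were not called did change sign in many settings and counted as the same. Sptbn4 in UON, crush 3D against glaucoma 3D, ran from -1.57 to 1.36. UON, MON and retina of 1 pool came from the same mice, so a fit with the pool as a block was added after the data were seen for the comparisons of gene levels between tissues. With this block 6, 6 and 7 genes were called for UON against retina, MON against retina and UON against MON, and 0 in each interaction, and Kcnip1 in UON against MON was the 1 call it changed. Within a tissue the groups came from different mice and the labels give no replicate numbers, so no pairing was possible there. With n = 2 pools per group, a value that missed the threshold does not show that levels were equal.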
